A study of Homo sapiens with 2 samples.

Results

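The SOX, FOX, PAX and NKX genes encode 4 families of developmental transcription factors, and called EWS-FLI binding was sparse at them in both libraries. A gene belonged to the set if it was protein-coding in RefSeq and its symbol was SOX, PAX or NKX followed by a digit, or FOX followed by a letter from A to S and a digit. SOX2, SOX6 and NKX2-2 were left out by that rule. This gave 91 of 20037 protein-coding genes: 17 SOX, 52 FOX, 9 PAX and 13 NKX. FOXL2NB, the neighbour gene of FOXL2, and FOXO3B, a copy of FOXO3, match by symbol alone.

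The data are CUT&Tag peak lists for EWS-FLI in TC32 cells, a long-established line from an Ewing sarcoma. In CUT&Tag an antibody guides a transposase, which cuts and tags nearby DNA, so reads collect where the antibody's target sits. TC32 cells given siEWS-FLI gave 1 library and TC32 cells given siNEG gave 1 library; the labels spell out neither siNEG nor the antibody. Each library went through 14 and then 20 cycles of PCR. With 1 library a group there is no replicate check, no p-value was computed, and every interval below covers counting error only. The design asks how EWS-FLI binding differs between the 2 treatments.

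SOX factors bind DNA through an HMG box, FOX factors through a forkhead domain, PAX factors through a paired domain and NKX factors through a homeodomain. They set cell identity in the embryo: SOX9 directs cartilage, PAX3 and PAX7 mark muscle and neural crest progenitors, FOXA factors open chromatin in endoderm, and NKX2-1 patterns thyroid, lung and forebrain. Many of these genes are silent outside their own lineage, whereas some FOX genes, such as FOXK1, FOXK2 and FOXM1, are used in many cell types. EWS-FLI, a fusion protein with the ETS DNA-binding domain of FLI1, binds GGAA-containing sequence, and repeated GGAA in particular.

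The siEWS-FLI list held 6370 intervals with a median summit pileup of 5 reads, and the siNEG list held 16284 with a median of 8. A pileup counts the reads, after extension, that cover a summit, and is unscaled for depth. Read totals were not available for scaling; the peak caller's genome-wide background came to 0.239 reads per base in siEWS-FLI and 0.348 in siNEG, mitochondrial reads included. An uncalled position may still hold reads, too few for the caller. With siEWS-FLI and siNEG, 0 and 4 of 7 Ewing sarcoma marker genes had a summit within 1 kb of an end. Of 9 markers of hepatocytes, T cells and epithelium 0 and 1 did, beside 12.3% and 34.1% of all protein-coding genes. The siNEG Wilson intervals, 25 to 84.2% for the 7 and 1.99 to 43.5% for the 9, both include 34.1%. The siEWS-FLI intervals, 0 to 35.4% and 0 to 29.9%, both include 12.3%. So few genes cannot serve as a check of the line. LIPI, CCND1 and NPY1R had no summit within 1 kb in either library. Within 50 kb, 4 of the 7 had a siEWS-FLI and 6 a siNEG summit, beside 44.5% and 71.8% of all genes. Of the 9 other markers 3 and 6 did. In that window CCND1 had a siNEG summit of 61 reads and LIPI one of 6, and NPY1R had a siEWS-FLI summit of 4. Binding data do not measure expression.

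At their own ends, few of these genes had a called site. With siEWS-FLI, 3 of 91 had a summit within 1 kb of either gene end (3.3%, 95% Wilson interval 1.13 to 9.25), beside 12.3% of all protein-coding genes. With siNEG, 11 had one (12.1%, 6.89 to 20.4), beside 34.1% of all genes. The sites were also smaller: the strongest siNEG summit at an end had a median of 8 reads over the 11 genes and of 12 reads over the 6836 protein-coding genes with one. An end summit of 20 or more siNEG reads was present at 3 of the 91 genes (3.3%) and at 11.1% of all genes.

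Within 50 kb of either end, 23 genes had a siEWS-FLI summit (25.3%, 17.5 to 35.1), beside 44.5% of all genes. siNEG summits were near 45 (49.5%, 39.4 to 59.5), beside 71.8%. In the same window, siEWS-FLI summits were called for 20 of the 45 (44.4%, 30.9 to 58.8), beside 55.9% of all genes with a siNEG summit. That order turned to 40% of members beside 33.2% of all genes when sites counted only for their nearest gene, and to 71.4% beside 67.7% with the siNEG list held to the siEWS-FLI list's length. A further 25 had siNEG summits alone, 3 (FOXO1, FOXL3 and SOX14) had siEWS-FLI summits alone, and 43 had neither. Other developmental factor genes, the HOX genes and a group of the TBX, LHX, IRX, GATA, POU and sine oculis homeobox families, are set beside them. At the ends, 1 of 40 HOX genes (2.5%) was called with siEWS-FLI and 2 (5%) with siNEG, and in the other families 5 of 58 (8.62%) and 10 (17.2%) were. Within 50 kb the siEWS-FLI shares were 27.5% and 37.9% and the siNEG shares 57.5% and 48.3%. The differences between these sets were not tested.

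**Figure D1:**
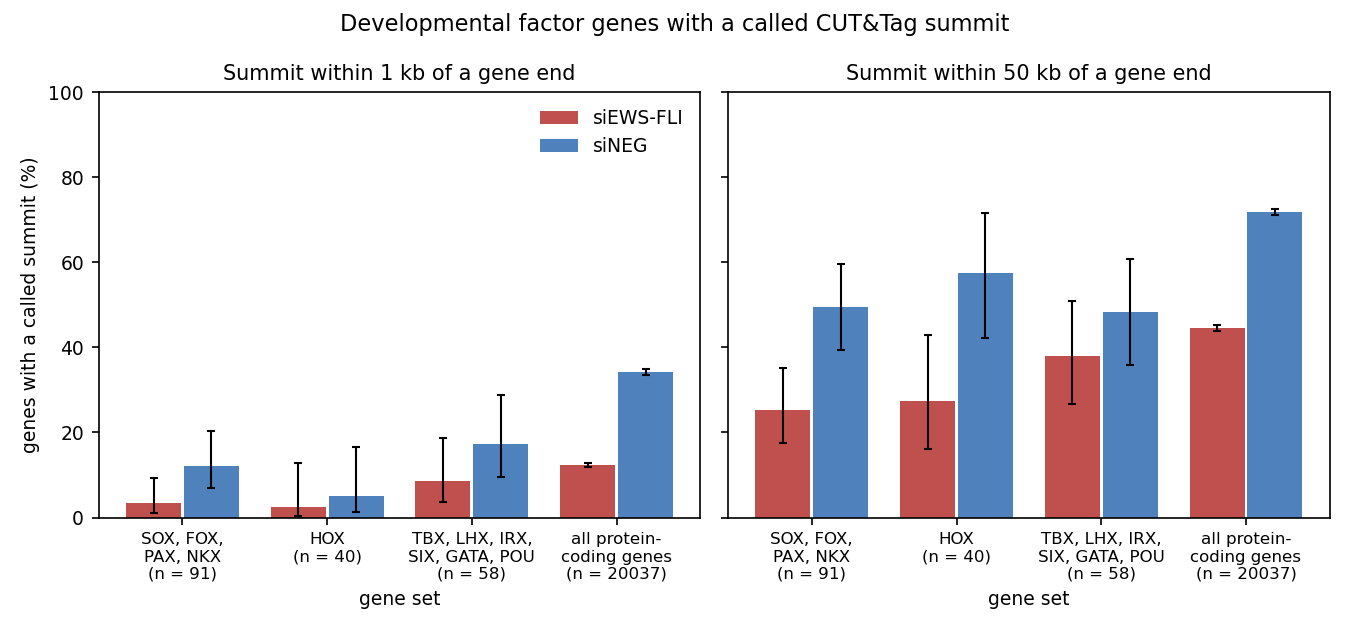
Percent of genes (vertical axis) with a called siEWS-FLI (red) or siNEG (blue) summit within 1 kb (left) and 50 kb (right) of either gene end, for 4 gene sets; error bars are 95% Wilson intervals. The 91 SOX, FOX, PAX and NKX genes stand at 3.3% and 12.1% within 1 kb, below the 12.3% and 34.1% of all protein-coding genes.

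These genes lie in gene-poor places. Over all genes the shares were higher in each class with more neighbours; the members' shares within 50 kb were highest in the densest class, but their end shares were not. The median member had 1 other protein-coding gene within 50 kb, against 2 over all genes, and was 4.93 kb long, against 24.1 kb. Among genes with no neighbour, 2 of 32 members (6.25%) had a siEWS-FLI end summit and 5 (15.6%) a siNEG one, beside 4.83% and 18.8% of all such genes. With 1 neighbour, 0 of 25 and 3 of 25 members (12%) had an end summit with siEWS-FLI and siNEG, beside 7.61% and 27.5% of all such genes. With 2 to 3 neighbours the counts were 1 (4.55%) and 3 (13.6%) of 22, beside 12.3% and 35.3%. Among genes with 4 or more neighbours, 0 of 12 members had an end summit in either library, beside 18.1% and 42.7% of all such genes. Within 50 kb, the members' siEWS-FLI shares from the sparsest class were 21.9%, 8% and 31.8%, beside 23.2%, 28.5% and 42.4% of all genes. Their siNEG shares were 31.2%, 44% and 54.5%, beside 45.5%, 59.2% and 74.4%. In the densest class 7 of the 12 (58.3%) were called with siEWS-FLI and 12 (100%) with siNEG, beside 65.6% and 86.6%. These classes were chosen after seeing the data, and 12 genes make a coarse share.

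**Figure D2:**
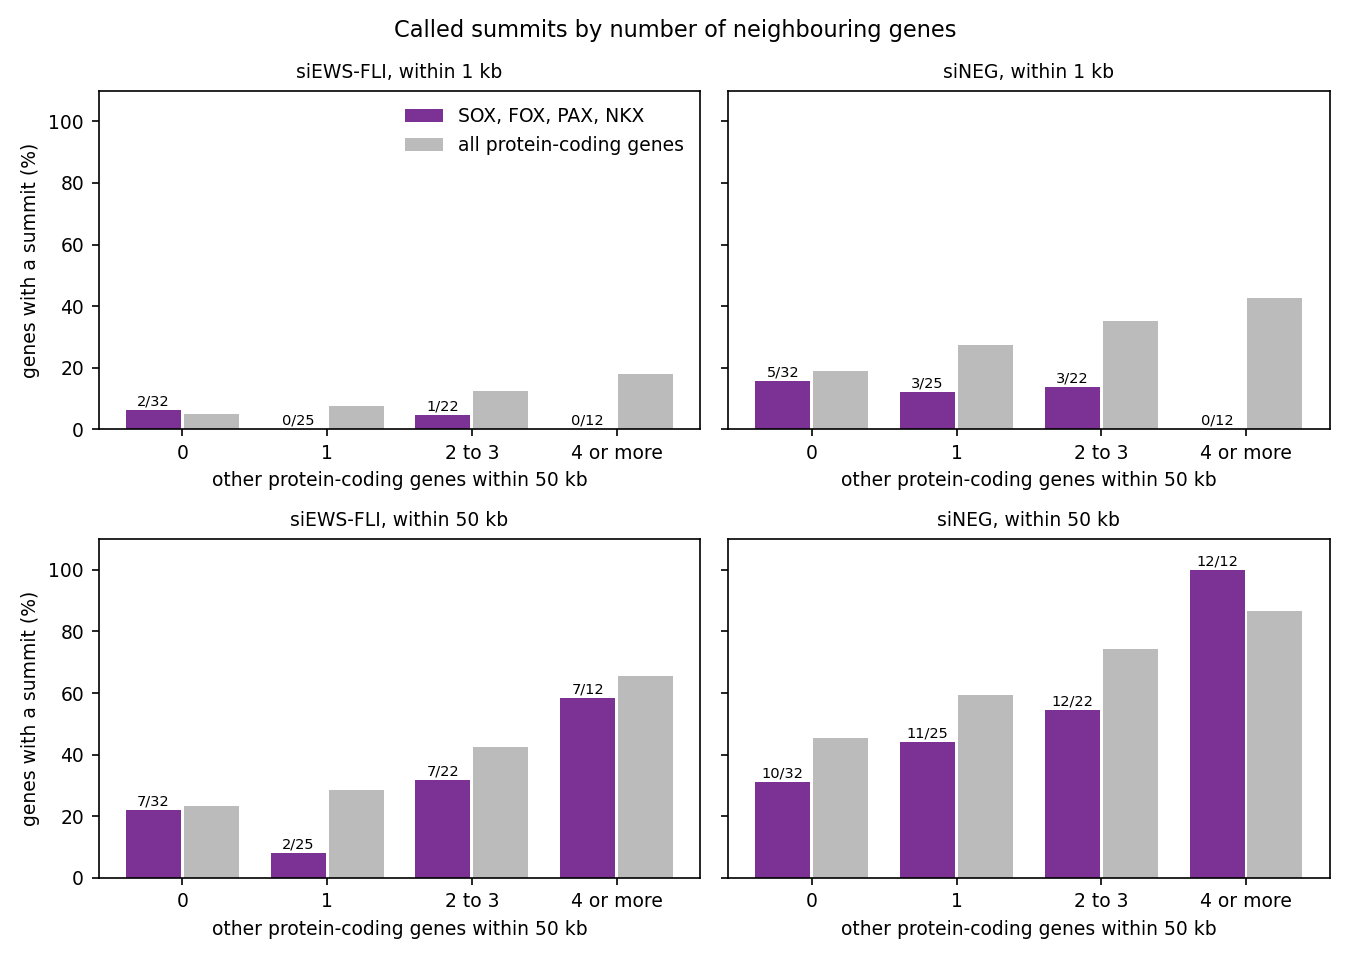
Percent of genes with a called summit (vertical axis) by the number of other protein-coding genes within 50 kb (horizontal axis), for members (purple, with counts) and all protein-coding genes (grey); siEWS-FLI left, siNEG right, 1 kb above, 50 kb below. Members without neighbours stand at 5 of 32 for siNEG end summits, close to the 18.8% of all such genes, and members with 4 or more neighbours at 0 of 12, against 42.7%.

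The strongest end site belonged to FOXN2, which encodes a forkhead factor. On chromosome 2 (hg38, 48314162 to 48314662), 0.729 kb inside the gene, the siEWS-FLI pileup was 9 reads (4.12 to 17.1) and the siNEG pileup 77 (60.8 to 96.2). The ratio was 0.117 (0.0515 to 0.234). The siEWS-FLI value lay far under the siNEG value and their counting intervals did not overlap.

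FOXO6, one of the insulin-responsive FOXO factors, had the next strongest. Its site just upstream of the gene on chromosome 1 (41360954 to 41361387) had 6 siEWS-FLI reads (2.2 to 13.1) and 24 siNEG reads (15.4 to 35.7), a ratio of 0.25 (0.0836 to 0.628). FOXN2 and FOXO6 were the members with an end site called in both libraries. FOXJ1, the master regulator of motile cilia, had a siEWS-FLI end summit of 4 reads (1.09 to 10.2) and no siNEG one.

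The other 9 end sites were called with siNEG alone. SOX1, a SoxB factor of neural progenitors, had 21 reads (13 to 32.1) on chromosome 13 (112066367 to 112066967). FOXK2, a widely expressed forkhead repressor, had 13 reads (6.92 to 22.2). FOXD2, a factor of mesoderm and neural crest derivatives, had 11 (5.49 to 19.7). PAX3 had 8 reads, SOX30, a testis factor in mice, 7, and PAX6, the eye and brain regulator, 6. SOX5, a partner of SOX9 in cartilage, had 6 reads, SOX13 had 5 and NKX2-3, a factor of gut mesoderm and spleen, had 4. The weakest siEWS-FLI sites called near members had 4 reads. Where the siNEG background was higher, more reads could have been missed: 8 with siEWS-FLI at the SOX1 end site, 6 at FOXD2 and 5 at FOXK2. At this depth a lower siEWS-FLI signal may not be detectable at any of these 9 genes. The SOX30 site lay nearer to C5orf52.

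**Figure D3:**
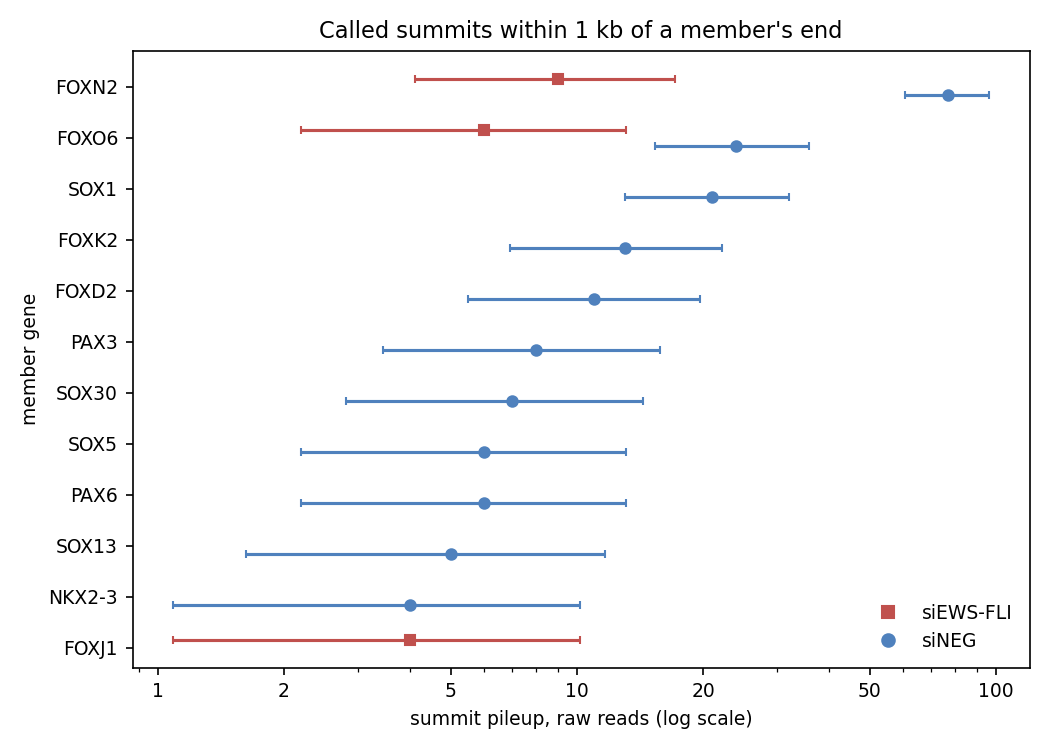
Raw reads at the strongest called summit (horizontal log axis) within 1 kb of an end of each of the 12 members with one (vertical axis); siEWS-FLI in red squares, siNEG in blue circles, bars are exact 95% Poisson intervals. FOXN2, with 9 siEWS-FLI and 77 siNEG reads, stands apart, and 9 genes have a siNEG summit alone.

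The promoter windows of RefSeq on GRCh38.p14, 250 bases before to 50 after a start, were available for 65 of the 91 genes, in 89 windows. Of the 11 genes with a siNEG end site 10 had a window, and each of their summits lay within 1 kb of a listed start, from 592 bases upstream at SOX5 to 378 downstream at SOX30. PAX9, which patterns teeth and the thymus, added a siNEG summit of 9 reads (4.12 to 17.1) 85 bases downstream of a start inside the gene, and FOXP1 one of 5 reads 775 bases downstream of a start. A siEWS-FLI summit fell inside 1 window, that of FOXO6, and siNEG summits fell inside 4. Those 5 windows are printed 5′ to 3′ on the gene's strand, with each GGAA or its reverse complement TTCC in capitals, to show the sequence under the called summits. The FOXO6 window (chr1:41361184-41361483, plus strand, siEWS-FLI summit at base 140, chosen after its values were seen), the FOXK2 window (chr17:82519482-82519781, plus, siNEG summit at base 56), the FOXD2 window (chr1:47437794-47438093, plus, base 27), the SOX13 window (chr1:204072865-204073164, plus, base 284) and the NKX2-3 window (chr10:99532692-99532991, plus, base 123) read as follows.
FOXO6: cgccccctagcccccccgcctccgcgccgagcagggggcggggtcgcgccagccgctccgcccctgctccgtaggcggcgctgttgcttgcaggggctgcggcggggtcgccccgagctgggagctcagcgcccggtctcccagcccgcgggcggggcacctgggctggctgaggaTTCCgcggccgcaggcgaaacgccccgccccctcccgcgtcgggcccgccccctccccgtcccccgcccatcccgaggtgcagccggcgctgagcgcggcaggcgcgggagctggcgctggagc
FOXK2: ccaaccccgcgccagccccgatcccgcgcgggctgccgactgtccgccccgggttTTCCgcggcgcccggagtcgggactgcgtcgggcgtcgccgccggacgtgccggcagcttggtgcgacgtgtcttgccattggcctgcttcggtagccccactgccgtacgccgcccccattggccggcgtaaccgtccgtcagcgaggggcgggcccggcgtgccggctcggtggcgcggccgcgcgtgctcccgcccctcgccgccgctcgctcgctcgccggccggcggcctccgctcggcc
FOXD2: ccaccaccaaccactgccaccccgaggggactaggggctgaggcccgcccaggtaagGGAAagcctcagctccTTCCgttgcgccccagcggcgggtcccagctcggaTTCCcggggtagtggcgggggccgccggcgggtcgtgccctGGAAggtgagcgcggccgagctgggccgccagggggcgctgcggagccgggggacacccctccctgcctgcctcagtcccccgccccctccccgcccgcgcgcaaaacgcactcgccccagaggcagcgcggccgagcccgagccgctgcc
SOX13: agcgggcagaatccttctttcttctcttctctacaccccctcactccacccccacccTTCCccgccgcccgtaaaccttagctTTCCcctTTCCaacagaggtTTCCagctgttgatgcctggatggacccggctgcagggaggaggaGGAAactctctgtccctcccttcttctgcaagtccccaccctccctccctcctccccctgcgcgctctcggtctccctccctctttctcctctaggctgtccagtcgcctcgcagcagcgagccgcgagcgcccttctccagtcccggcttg
NKX2-3: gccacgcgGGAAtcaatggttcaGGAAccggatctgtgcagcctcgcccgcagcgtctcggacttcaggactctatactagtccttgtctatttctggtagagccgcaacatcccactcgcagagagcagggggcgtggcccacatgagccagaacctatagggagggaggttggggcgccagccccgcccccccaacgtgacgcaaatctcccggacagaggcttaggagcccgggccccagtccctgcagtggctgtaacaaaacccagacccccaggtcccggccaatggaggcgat

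The FOXO6 window has 1 GGAA on either strand, FOXK2 1, FOXD2 4, SOX13 5 and NKX2-3 2. SOX4, a SoxC factor of neural and mesenchymal progenitors (chr6:21593501-21593800, plus), and PAX2, a factor of kidney and midbrain (chr10:100735146-100735445, plus), have 7 and 6 GGAA matches and no summit within 50 kb in either library; these windows hold the most among members with no summit.
SOX4: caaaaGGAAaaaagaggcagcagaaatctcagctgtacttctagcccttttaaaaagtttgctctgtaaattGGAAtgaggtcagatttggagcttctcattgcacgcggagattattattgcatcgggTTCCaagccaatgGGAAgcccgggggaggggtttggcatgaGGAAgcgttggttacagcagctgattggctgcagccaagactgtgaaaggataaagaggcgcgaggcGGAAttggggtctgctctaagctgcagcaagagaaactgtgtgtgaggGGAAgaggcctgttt
PAX2: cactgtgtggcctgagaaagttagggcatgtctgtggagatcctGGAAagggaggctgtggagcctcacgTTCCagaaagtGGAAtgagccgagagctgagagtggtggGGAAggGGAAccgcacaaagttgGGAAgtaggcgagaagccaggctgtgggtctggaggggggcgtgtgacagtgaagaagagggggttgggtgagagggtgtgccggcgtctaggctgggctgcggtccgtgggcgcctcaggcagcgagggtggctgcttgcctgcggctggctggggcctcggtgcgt

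Over all 89 windows, GGAA on either strand was present in 82 (92.1%), beside 95.1% of 22199 windows of protein-coding genes, with a median of 3 matches in each. The tandem GGAAGGAA, which overlaps GGAA, was present in 3 (3.37%, beside 3.7%): the windows of FOXD1, FOXD4L1 and PAX6. The ETS site CCGGAAGT, which also contains GGAA, was present in 0 of 89, beside 5.34% of all windows. The forkhead motif TGTTTAC was present in 4 (4.49%, beside 2.85%), at FOXO4, FOXP1, NKX2-1 and SOX12. Median GC content was 64% in members' windows and 62.3% in all. A match is a description of these letters, not a binding site.

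Much of what was called within 50 kb lay nearer to other genes. The windows of the 45 genes held 107 distinct siNEG sites, of which 57 lay nearest to a gene outside the set, measured to gene ends. Counting a site only for its nearest gene, 25 of 91 members had a siNEG site (27.5%, 19.4 to 37.4), beside 45.3% of all genes. The strongest sites in the FOXM1, FOXA3, FOXH1, SOX15 and PAX4 windows were all of this kind. FOXM1, an activator of genes for mitosis, had 13 siEWS-FLI and 59 siNEG reads at a site 44.9 kb away at ITFG2. FOXA3, a liver pioneer factor, had 6 siEWS-FLI and 58 siNEG reads at one 1.04 kb away at SYMPK. FOXH1, a SMAD partner in Nodal signalling, had 12 siEWS-FLI and 46 siNEG reads at PPP1R16A. PAX4, of the pancreatic islet, had 10 siEWS-FLI and 40 siNEG reads at SND1. None of these sites lay nearest to the member. In the gene-dense SOX15 window, sites at MPDU1 (52 reads) and EIF4A1 (40 reads) were called with siNEG alone, and a site at FXR2 had 13 siEWS-FLI and 47 siNEG reads. Of 17 siNEG sites with 20 or more reads near members, 5 lay nearest to a member: FOXN2, FOXJ2, SOX8, FOXO6 and SOX1.

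**Figure D4:**
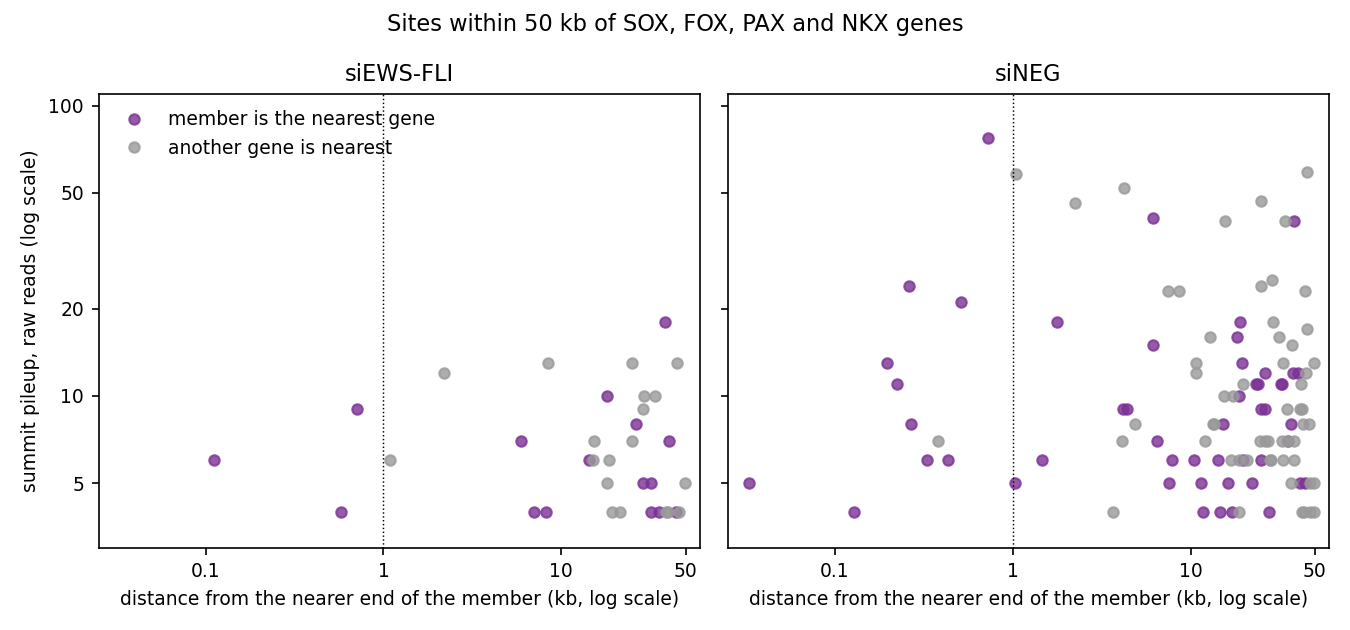
Summit pileup in raw reads (vertical log axis) against distance from the nearer end of the member in kb (horizontal log axis) for every site within 50 kb, siEWS-FLI left and siNEG right; purple points lie nearest to the member, grey points nearest to another gene, and the dotted line marks 1 kb. siEWS-FLI sites reach 18 reads and siNEG sites 77, and 75 of the 107 siNEG sites lie outside the gene more than 1 kb from its end.

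Sites nearest to a member numbered 16 with siEWS-FLI and 50 with siNEG. Of the 50, 9 were called in both (18%, beside 15.6% of all siNEG intervals). FOX genes had 24 siNEG sites of their own, 7 of them shared with siEWS-FLI. SOX genes had 12, with 2 shared. PAX genes had 13, with 0 shared, and their siNEG pileups ran from 4 to 15 reads. Over all siNEG intervals, 3.59% of those with 4 to 9 reads and 16.7% with 10 to 19 were shared. NKX genes had 1, at NKX2-3, with 0 shared. All 7 shared FOX sites belonged to a list of 13 FOX genes, FOXM1, FOXO1, FOXO3, FOXO4, FOXO6, FOXK1, FOXK2, FOXJ2, FOXJ3, FOXN2, FOXN3, FOXP1 and FOXP4, which had 20 siNEG sites of their own. Most of the 13 are widely expressed, whereas FOXO6 is known mainly from the brain. The differences between families were not tested, and the pileup ranges differ, with up to 77 reads for FOX and 40 for SOX genes. Median gene length differed, at 62.9 kb for PAX genes and 84.9 kb for the 13 listed FOX genes, against 4.93 kb for all members.

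The shared FOX sites away from gene ends were those of FOXJ2, FOXK1, FOXK2 and FOXP4. FOXJ2 had 7 siEWS-FLI reads (2.81 to 14.4) and 41 siNEG reads (29.4 to 55.6) at 6.14 kb, on chromosome 12 (8026326 to 8027279), a ratio of 0.171 (0.0646 to 0.384). The siEWS-FLI value was the lower and the intervals did not overlap. FOXK2 had 10 siEWS-FLI reads (4.8 to 18.4) and 16 siNEG reads (9.15 to 26) inside the gene. FOXK1, its paralogue, had 8 siEWS-FLI (3.45 to 15.8) and 12 siNEG reads (6.2 to 21) inside the gene, and 7 siEWS-FLI and 12 siNEG reads 40.2 kb outside it. FOXP4 had 6 siEWS-FLI and 6 siNEG reads. At FOXK2, FOXK1 and FOXP4 the counting intervals overlap and the ratios, from 0.583 to 1, cannot be told from equal reads. Reads are unscaled, and the genome-wide background was 0.239 in siEWS-FLI and 0.348 in siNEG, so equal reads need not mean equal binding.

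SOX8, a SoxE factor of neural crest and gonad, had the strongest siEWS-FLI site of the set. It lay 38.4 kb outside the gene, on chromosome 16 (1025246 to 1025630), with SOX8 the nearest gene, and had 18 siEWS-FLI reads (10.7 to 28.4) and 40 siNEG reads (28.6 to 54.5), a ratio of 0.45 (0.243 to 0.803). A second shared site 28.9 kb from SOX8, nearest to LOC102723713, had 9 siEWS-FLI and 25 siNEG reads. SOX5 had 5 siEWS-FLI (1.62 to 11.7) and 11 siNEG reads (5.49 to 19.7) 32.3 kb inside the gene on chromosome 12. SOX10, the glial and melanocyte factor of neural crest, had 6 siEWS-FLI and 6 siNEG reads 18.6 kb away, between C22orf23 and POLR2F.

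Over all 21 shared siNEG sites near members, the siEWS-FLI to siNEG ratio had a median of 0.385 and ran from 0.103 to 1, beside a median of 0.31 over all 2544 shared siNEG intervals. Of the 107 siNEG sites 19.6% were shared (13.2 to 28.1), beside 15.6% of all siNEG intervals. By siNEG strength, the shared sites were 2 of 62 sites with 4 to 9 reads (3.23%, beside 3.59% of all intervals of that strength), 7 of 28 with 10 to 19 (25%, beside 16.7%) and 12 of 17 with 20 or more (70.6%, beside 52.5%). The median ratio at 20 or more reads was 0.256, beside 0.206. Of the 17 sites of that strength, 5 lay nearest to a member. Those of FOXN2, FOXJ2, SOX8 and FOXO6 were shared and that of SOX1 was not. The differences from all intervals were not tested.

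**Figure D5:**
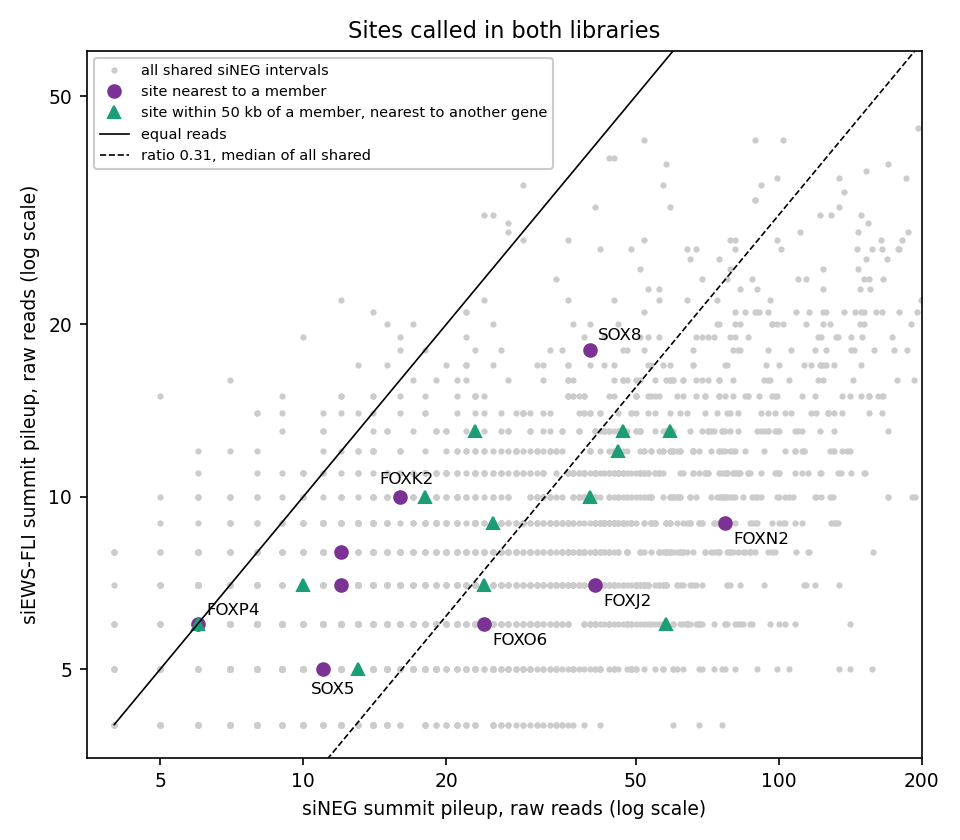
siEWS-FLI against siNEG summit pileup in raw reads (log axes, which end at 60 and 200 reads, so stronger grey points are not shown) at sites called in both libraries: nearest to a member (purple), nearest to another gene (green) and all shared intervals (grey). The line marks equal reads and the dashed line the median ratio of 0.31; FOXN2 lies at 9 and 77 reads, SOX8 at 18 and 40, the 2 unlabelled purple points are FOXK1, and FOXP4 and a site near SOX10 coincide at 6 and 6.

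Sites of their own called with siNEG alone lay around SOX1 and several PAX genes. SOX1 had 5 siNEG sites, all nearest to it: beside the end site of 21 reads there were 5 reads at 1.03 kb, 5 at 7.55 kb, 18 (10.7 to 28.4) at 19.1 kb and 9 at 26.3 kb. None was called with siEWS-FLI. PAX7, the satellite cell factor, had 13 reads (6.92 to 22.2) 19.5 kb outside the gene on chromosome 1 (18611231 to 18611471), and 9 and 8 reads at 25 and 36.5 kb inside it. PAX3 had 15 reads (8.4 to 24.7) 6.17 kb outside and 6 reads 7.82 kb inside, besides its end site. PAX8, of thyroid and kidney, had 9 reads and SOX9 had 11 (5.49 to 19.7) at 32.5 kb. SOX12, a SoxC factor, had 18 reads (10.7 to 28.4) inside the gene 1.77 kb from an end. At the siNEG local background, up to 8 and 6 siEWS-FLI reads at the SOX1 sites of 21 and 18 reads would have stayed uncalled. That limit was 6 reads at the PAX3 site of 15, 4 at the PAX7 site of 13, 5 at SOX9 and 9 at SOX12. A lower siEWS-FLI signal at these sites may therefore not be detectable.

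PAX5, the B cell factor, was the PAX gene with siEWS-FLI sites nearest to it, 3 of 4, 5 and 4 reads, at positions where siNEG had none. Its own siNEG sites had 4 to 7 reads, and a site nearer to ZCCHC7, 45.5 kb away, had 17 (9.9 to 27.2). Near all members 13 siEWS-FLI sites lacked a siNEG interval; all 13 were the narrowest width listed, 200 bases, and they had 4 or 5 reads. Apart from FOXO6, the FOXO genes had weak sites: FOXO1 had a siEWS-FLI summit of 4 reads nearest to MRPS31, FOXO3 had 8 siNEG reads (3.45 to 15.8) 15.3 kb away and FOXO4 had 7 siNEG reads near SNX12. Among NKX genes, NKX1-2 had 7 siNEG reads at OAT, NKX6-3 had 4 siNEG reads near GPAT4, and NKX2-3 had, besides its end site, a siEWS-FLI site of 4 reads 45.8 kb away. NKX2-1 had no summit within 50 kb; its nearest was 447 kb away with siEWS-FLI and 142 kb with siNEG.

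Long genes held further sites more than 50 kb from both ends, which the windows do not count and which were looked for after seeing the data. SOX5 had the strongest, on chromosome 12 (24307319 to 24308143), 255 kb inside, with 7 siEWS-FLI reads (2.81 to 14.4) and 37 siNEG reads (26.1 to 51), a ratio of 0.189. A second shared SOX5 site had 7 siEWS-FLI and 9 siNEG reads. FOXP1, a forkhead factor of B cells and neurons, had 5 such siNEG sites of 6 to 21 reads (13 to 32.1 for the strongest) and PAX5 had 2, of 22 (13.8 to 33.3) and 9 reads; none was called with siEWS-FLI. FOXP2 had 1 of 4 reads.

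Lineage lists are read against the 44.5% of all genes near a siEWS-FLI and the 71.8% near a siNEG summit, at 50 kb. By lineage, 3 of 7 neural crest factors (SOX5, SOX8, SOX9, SOX10, PAX3, PAX7 and FOXD3) were near a siEWS-FLI summit and all 7 near a siNEG one; sites nearest to the factor itself were present for 2 and 5 of them. Of the 13 listed FOX genes 8 were near a siEWS-FLI and 10 near a siNEG summit. Their median length was 84.9 kb, against 24.1 kb for all genes and 4.93 kb for all members. Of 9 neural tube and brain factors 0 were near a siEWS-FLI and 2 (SOX1 and PAX6) near a siNEG summit. The siEWS-FLI and siNEG counts were 1 and 4 of 7 for skeleton and cartilage factors, 2 and 3 of 9 for heart and vessel factors, 2 and 3 of 10 for endoderm and gland factors and 1 and 1 of 3 SoxC genes. These lists are short, share genes and were not tested against each other.

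Several of the 43 genes with no summit within 50 kb in either library lie in groups on the same chromosome, some of them more than 50 kb apart. PAX1, FOXA2, NKX2-1 and NKX2-8 had no other protein-coding gene within 50 kb. FOXF1, FOXC2 and FOXL1 on chromosome 16, NKX2-4, PAX1 and FOXA2 on chromosome 20, NKX2-1 and NKX2-8 on chromosome 14, and FOXL2 with FOXL2NB had none within 50 kb in either library. All 6 FOXD4 genes, near-identical copies to which reads cannot be assigned with certainty, also had none. FOXQ1, FOXF2 and FOXC1 on chromosome 6 had weak siNEG sites of 4 to 7 reads, and FOXQ1 and FOXF2 share 1 of them. FOXE3, the lens factor, and FOXD2 likewise share the FOXD2 end site. Other genes without a summit included FOXJ3, FOXN3, FOXP2, FOXA1, FOXB1, FOXB2, FOXE1, FOXI1, FOXI2, FOXI3, FOXO3B, FOXR2, PAX2, SOX3, SOX4, SOX7, SOX11, SOX17, SOX21, NKX1-1, NKX2-5, NKX2-6, NKX3-2, NKX6-1 and NKX6-2. For the 46 genes with no siNEG summit in the window the nearest one lay 55 to 849 kb away, with a median of 126 kb.

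Genes that regulate, assist or respond to these factors had higher shares at their ends than the members; the difference was not tested, and their median length of 39.4 kb and 2 neighbours differ from the members' 4.93 kb and 1. Of 48 such genes, 11 had a siEWS-FLI end summit (22.9%, 13.3 to 36.5) and 28 a siNEG one (58.3%, 44.3 to 71.2), beside 12.3% and 34.1% of all protein-coding genes. Among 17 FOXO regulators 6 had a siEWS-FLI and 12 a siNEG end summit: YWHAB, a 14-3-3 protein that retains FOXO factors in the cytoplasm, had 21 siEWS-FLI (13 to 32.1) and 95 siNEG reads (76.9 to 116), and AKT2, a kinase that phosphorylates them, had 12 siEWS-FLI (6.2 to 21) and 75 siNEG reads (59 to 94). EP300, a histone acetyltransferase coactivator, had 86 siNEG reads (68.8 to 106) and no siEWS-FLI end summit; of the 5 coactivators 0 and 3 had an end summit with siEWS-FLI and siNEG. With siEWS-FLI and siNEG, 1 and 3 of the 5 TLE corepressors had an end summit, of 14 FOXO targets 3 and 7, and of 7 FOXM1 targets 1 and 3. SOD2, a FOXO target that detoxifies superoxide, had 11 siEWS-FLI (5.49 to 19.7) and 23 siNEG reads (14.6 to 34.5).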

How the data were processed

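EWS-FLI CUT&Tag was deposited as 1 MACS2 peak list for TC32 cells given siEWS-FLI and 1 for cells given siNEG, called per library. The build hg38, MACS2 2.2.9.1, Bowtie2 2.4.5 and Trim Galore 0.6.6 are listed, with no roles, by the submitters' processing notes; whether a control library was used or duplicates were removed is not stated there. Each line holds the deposited fold enrichment (a linear ratio over local background), its deposited significance as −log10 of p and of q (p-value and q-value), and a deposited display score, which was not used.

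With Python 3.11.15, lines sharing an interval were merged on chromosomes 1 to 22, X and Y, keeping the highest −log10 q. The summit pileup was solved as the whole number k with fold equal to k plus 1 over background plus 1 and p the Poisson upper tail; 100% of intervals were solved within 0.001 in log10 p, a tolerance that grew in proportion above 10. The steps were tested on simulated data. Pileups are unscaled reads with exact 95% Poisson intervals, ratios have exact binomial intervals, and shares have Wilson intervals that treat genes or sites as independent, which neighbouring genes are not.

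Genes came from RefSeq GRCh38.p14, which has hg38 coordinates; windows were 1 kb and 50 kb from either gene end. Sharing meant an overlap of at least 1 base. Genes were named by the highest pileups per window and family plus 9 fixed names; others named were picked after their values were seen. The members, lists and rules were chosen with earlier results of these data known. In all 11 alternatives were tried, 1 of them, and the classes of neighbouring genes, added after seeing the data. Some members are counted but not reported by name here.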

Additional observations from a re-analysis of the deposited data

How the results depend on the processing

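Across 11 alternatives 52 values were recomputed, of which 14 were marked as moved and 38 were not. Some of the 38 could not move. The FOXD4 genes, FOXL2NB and FOXO3B had no summit within 50 kb, so leaving them out returned every value. Shortening the siNEG list could not change a siEWS-FLI count. Others of the 38 did differ: members with a siNEG summit numbered 34 within 20 kb and 60 within 100 kb, against 45. At a −log10 q of at least 5 they numbered 32. No paired analysis was possible because each group has 1 library, and no replicate could be left out. With a stricter −log10 q threshold of 5 on each list, the members with a siEWS-FLI summit within 50 kb numbered 9, those with an end summit 1 (siEWS-FLI) and 5 (siNEG), and 28.1% of members with a siNEG summit also had a siEWS-FLI one. With the siNEG list held to the length of the siEWS-FLI list, members with a siNEG summit numbered 21 within 50 kb and 4 within 1 kb, the share also called with siEWS-FLI was 71.4% (67.7% of all genes, the opposite order to 44.4% and 55.9%), and 51.4% of siNEG sites were shared. At that length 25.3% of members had a siEWS-FLI and 23.1% a siNEG summit within 50 kb, beside 44.5% and 49.3% of all genes. The excess of siNEG members was not seen within 50 kb at equal list lengths. Equal lengths remove the difference in list size by construction, so this is not a result about the members. Within 1 kb the shares were 3.3% and 4.4% of members, beside 12.3% and 20.4% of all genes. Members with a siEWS-FLI summit numbered 12 within 20 kb (13.2%, beside 29.9% of all genes) and 37 within 100 kb (40.7%, beside 58.6%). With sites given to the nearest gene alone, they numbered 12 (13.2%, beside 20.2%), and those with a siNEG summit 25 (27.5%, beside 45.3%). The share also called with siEWS-FLI was then 40% for members and 33.2% for all genes, again the opposite order. Within 500 bases 1 member had a siEWS-FLI end summit (1.1%, beside 10.7%). At a reciprocal overlap of 50%, 12.1% of siNEG sites were shared. Beyond list construction, the cause of these shifts was not tested. In all 7 alternative windows, thresholds, assignments and list lengths computed for all genes, the members' shares with a summit stayed below those of all genes. Of sites with 4 to 9 siNEG reads, 3.23% near members and 3.59% of all were also called with siEWS-FLI. A lower siEWS-FLI level at such sites can fall under what the caller lists.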
